A study of Mus musculus with 8 samples.

Results

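The CCN family holds 6 genes in the mouse, *Ccn1* to *Ccn6*, which are also named *Cyr61*, *Ctgf*, *Nov*, *Wisp1*, *Wisp2* and *Wisp3*. They were taken by name from a count table of 55890 genes measured in the hypothalamus, and all 6 members were found there by Ensembl identifier. The females were 16 weeks old, and RNA of their hypothalami was pooled in pairs before sequencing, which gave 4 POMC-C451Af/f pools and 4 control pools from 8 animals of each genotype. POMC-C451Af/f mice carry a POMC-Cre transgene and a conditional *Esr1* allele, in which a cysteine of estrogen receptor alpha needed for its membrane-initiated signalling is changed to alanine where the Cre is active. The methods of the study describe the controls as littermates with the floxed allele and without the Cre, whereas the sample labels call them wildtype. The Cre acts in POMC neurons, a small share of the cells in the tissue, so a whole-tissue pool measures mostly RNA of other cells. Pools had a total of between 36095253 and 40498166 estimated counts in POMC-C451Af/f mice and between 37841365 and 48942116 in controls.

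*Esr1*, the mutated gene, was at 11.6, 12.2, 9.997 and 10.8 CPM (counts relative to the TMM-scaled library size) in POMC-C451Af/f replicates 1 to 4. It was at 12.3, 12.8, 11.6 and 16.0 CPM in control replicates 1 to 4. The genotypes overlapped, with the highest value in control replicate 4, and the log2 difference of POMC-C451Af/f over control was -0.23 ± 0.104 (SE), with an unadjusted p of 0.0462 and an FDR of 0.878 by edgeR. Reads of the mutated and the intact transcript add up in a gene's count, so these values carry no check of the genotype. All 11 markers of the hypothalamus list were counted in every pool, with a summed level between 841 and 1664 CPM. Its most abundant gene per exon length was *Pmch*, which encodes melanin-concentrating hormone, at 312 to 631 CPM. *Kiss1*, the defining gene of kisspeptin neurons, was at a count of 0 in 6 pools, including all 4 control pools, and at 12.6 and 9.97 counts in POMC-C451Af/f replicates 2 and 4. *Tac2* and *Pdyn*, which the kisspeptin neurons of the arcuate nucleus also express, were counted in every pool, at 23.1 to 31.8 CPM and at 39.0 to 70.4 CPM.

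CCN proteins are secreted, cysteine-rich matricellular proteins that sit in the extracellular matrix and bind integrins, LDL receptor-related proteins and heparan sulfate proteoglycans. They share an IGFBP-like module, a von Willebrand factor C module and a thrombospondin module, and all members except CCN5 end in a cystine knot module. *Ccn1* and *Ccn2* are textbook targets of the YAP and TEAD transcription complex, *Ccn1* is also an immediate early gene, *Ccn2* responds to TGF-beta, and *Ccn4* and *Ccn5* were named for their induction by Wnt1. CCN3 has been described as a brain-derived hormone that builds bone and is made by kisspeptin neurons of the arcuate nucleus in lactation, and variants of the human *CCN6* gene cause a skeletal dysplasia.

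The coding sequences show what the members share and how far their reads can be told apart. In the GENCODE M21 transcripts the coding sequence had 379 codons in *Ccn1*, 348 in *Ccn2*, 354 in *Ccn3*, 367 in *Ccn4* and 354 in *Ccn6*, against 251 codons in *Ccn5*. The number of cysteine codons was between 37 and 40 in the 5 longer members and 29 in *Ccn5*. The best known stretch of the IGFBP-like module, 8 codons with 4 of them for cysteine, was found in all 6 members and is printed as coding DNA, 5′ to 3′, with the cysteine codons in capitals.
Ccn1: ggcTGCggcTGCTGTaaggtcTGC
Ccn2: ggcTGCggcTGCTGCcgcgtcTGC
Ccn3: ggcTGCtccTGCTGTccggtgTGC
Ccn4: ggcTGTgaaTGCTGTaagataTGT
Ccn5: ggcTGTggcTGCTGTcgagtgTGT
Ccn6: ggcTGTggaTGCTGCaaagtcTGT
The stretch lies in exon 2 of the transcript, and in exon 3 for *Ccn5*. On GRCm38 it spans chr3:145649331-145649354 on the minus strand in *Ccn1*, chr10:24595966-24595989 on the plus strand in *Ccn2*, and chr15:54746265-54746288 on the plus strand in *Ccn3*. It spans chr15:66906545-66906568 on the plus strand in *Ccn4*, chr2:163825225-163825248 on the plus strand in *Ccn5*, and chr10:39158371-39158394 on the minus strand in *Ccn6*. Of its 24 bases, *Ccn1* and *Ccn2* shared 20, while *Ccn2* and *Ccn4*, and also *Ccn3* and *Ccn6*, shared 14. Over whole transcripts, the longest identical run between any 2 members was 28 bases, between *Ccn2* and *Ccn3*, and no other of the 15 pairs shared more than 18 bases. Exons of *Ccn2* overlap the noncoding gene *Gm15270* and exons of *Ccn6* overlap *Tube1*, in both cases on the opposite strand, and the library kit kept strand. No exon of another annotated gene overlapped the remaining 4 members.

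The family fell into 3 members at moderate levels and 3 at very low levels. Per kilobase of exon, *Ccn3* was at 4.33 ± 1.38 CPM per kb (SD, n = 8 pools), *Ccn2* at 3.19 ± 1.55 and *Ccn1* at 3.04 ± 0.555 on the same scale. *Ccn5* was at 0.137 ± 0.0416 CPM per kb, *Ccn6* at 0.106 ± 0.0419 and *Ccn4* at 0.0686 ± 0.0335 (SD, n = 8 pools). *Ccn3* stood above 53.2% of the tested genes on this scale, and *Ccn4* above 1.01% of them. *Ccn1*, *Ccn2* and *Ccn3* together made up between 96.0 and 98.3% of the summed family level in each pool.

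Neighbours in this order were compared within pools by the log2 ratio of their levels per kb, with a two-sided exact sign-flip permutation test whose smallest p over 8 pools is 0.00781. *Ccn1* exceeded *Ccn5* in 8 of 8 pools by a mean log2 ratio of 4.06 (exact permutation p = 0.00781, adjusted p = 0.0195 over 5 pairs). *Ccn3* exceeded *Ccn2* in 8 of 8 pools by 0.50 (exact permutation p = 0.00781, adjusted p = 0.0195). With the longest transcript as the length, the ratio of *Ccn3* to *Ccn2* was 0.31 (exact permutation p = 0.102), the same direction without passing the test. *Ccn2* was above *Ccn1* in 4 of 8 pools by a mean log2 ratio of -0.042 (exact permutation p = 0.867), and that ratio was 0.15 with the longest transcript as the length. Among themselves, the 3 low members did not differ from their neighbours beyond the spread, with exact permutation p of 0.117 for *Ccn5* over *Ccn6* and 0.164 for *Ccn6* over *Ccn4*.

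**Figure D1:**
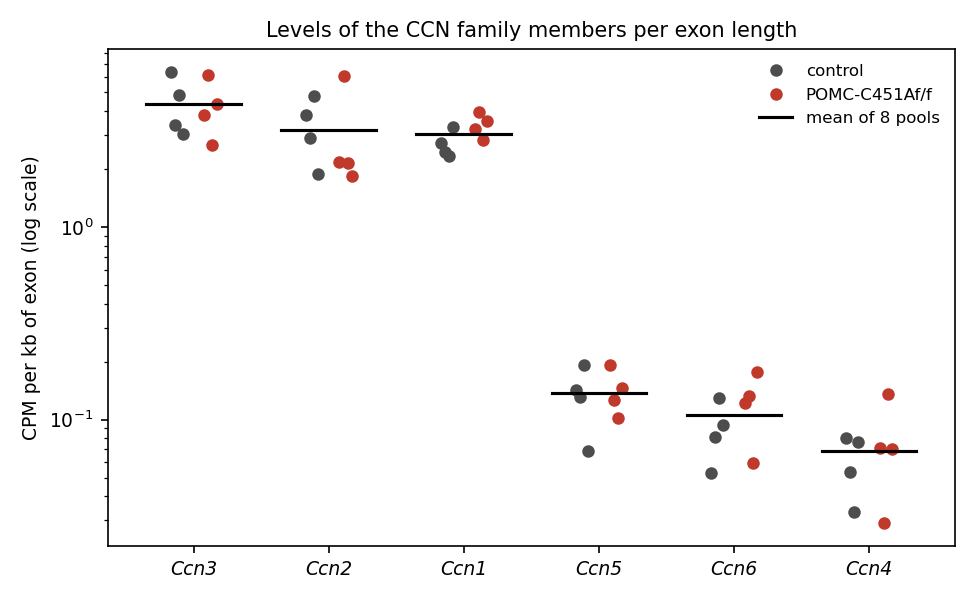
Levels of the 6 members in CPM per kb of exon on a log scale, with 1 point for each control pool (grey) and POMC-C451Af/f pool (red) and a line at the mean of 8 pools. *Ccn3*, *Ccn2* and *Ccn1* lie between 1.84 and 6.38 CPM per kb, and the other 3 members between 0.029 and 0.192.

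Between the genotypes, 0 of the 5 members that passed the filter on low counts were called in edgeR's quasi-likelihood test, against 4 of 18637 tested genes (0.0215%). A gene was called at a Benjamini-Hochberg FDR of 0.05 or less over all tested genes and an absolute log2 fold change over 0.5. DESeq2 and limma voom also called 0 members. Without adjustment, 1 member, *Ccn1*, had a p under 0.05, as did 950 genes (5.1%), of which 504 (2.7%) were higher and 446 (2.39%) lower in POMC-C451Af/f pools. No member had genotypes whose pools did not overlap, a state found for 519 genes (2.78%). No batch is given in the labels.

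*Ccn3* (ENSMUSG00000037362.9) lies at chr15:54745702-54754039 on the plus strand of GRCm38. Its level was 11.0, 17.7, 7.67 and 12.5 CPM in POMC-C451Af/f replicates 1 to 4, from 445, 658, 273 and 449 estimated counts. It was 18.3, 9.72, 13.9 and 8.69 CPM in control replicates 1 to 4, from 738, 424, 678 and 328 counts. The highest values were in control replicate 1 and POMC-C451Af/f replicate 2, the lowest was in POMC-C451Af/f replicate 3, and the genotypes overlapped throughout their range. POMC-C451Af/f pools averaged 12.2 ± 4.17 CPM (SD, n = 4) and control pools 12.6 ± 4.39 CPM (SD, n = 4). EdgeR gave a log2 difference of -0.052 ± 0.267 (SE) at an FDR of 0.985. Its 95% interval reached from -0.64 to 0.54, that is from 0.641-fold to 1.45-fold. A two-sided exact permutation test over pools gave p = 0.886, where 0.0286 is the smallest value that 4 pools against 4 allow. The log2 fold change was 0.18 without control replicate 1 and -0.29 without POMC-C451Af/f replicate 2.

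*Ccn2* (ENSMUSG00000019997.12), at chr10:24595442-24598683 on the plus strand, encodes connective tissue growth factor. Its level was 6.22, 17.3, 6.12 and 5.26 CPM in POMC-C451Af/f replicates 1 to 4, from 252, 643, 218 and 189 estimated counts. It was 10.8, 8.25, 13.7 and 5.40 CPM in control replicates 1 to 4, from 437, 360, 671 and 204 counts. POMC-C451Af/f replicate 2 had the highest value of all pools, whereas the other 3 pools of that genotype lay within the lower part of the control range or below it. POMC-C451Af/f pools averaged 8.72 ± 5.72 CPM (SD, n = 4) and control pools 9.55 ± 3.56 CPM (SD, n = 4). EdgeR gave a log2 difference of -0.14 ± 0.385 (SE) at an FDR of 0.969. The 95% interval was wide, from 0.504-fold to 1.64-fold, and the exact permutation p was 0.657. Without POMC-C451Af/f replicate 2 the log2 fold change was -0.71, with an unadjusted p of 0.0213 by edgeR and an FDR of 0.485, where the FDR lay between 0.485 and 1 over the 8 fits that each left out 1 pool. Without control replicate 3 it was 0.093.

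*Ccn1* (ENSMUSG00000028195.5), at chr3:145646976-145649981 on the minus strand, was the most even of the 3 moderate members. Its level was 6.54, 7.95, 5.70 and 7.12 CPM in POMC-C451Af/f replicates 1 to 4, from 265, 296, 203 and 256 estimated counts. It was 5.53, 4.95, 4.68 and 6.67 CPM in control replicates 1 to 4, from 223, 216, 229 and 252 counts. Control replicates 1 to 3 lay below every POMC-C451Af/f pool and control replicate 4 lay among them. POMC-C451Af/f pools averaged 6.83 ± 0.949 CPM (SD, n = 4) and control pools 5.46 ± 0.883 CPM (SD, n = 4). EdgeR gave a log2 difference of 0.33 ± 0.134 (SE), with an unadjusted p of 0.0342 and an FDR of 0.878. The 95% interval reached from 1.02-fold to 1.54-fold and the exact permutation p was 0.0857, so the difference did not pass either the adjustment over all genes or the test over pools. When single pools were left out, its log2 fold change lay between 0.24 and 0.43, and its unadjusted p was under 0.05 in 3 of the 8 fits.

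**Figure D2:**
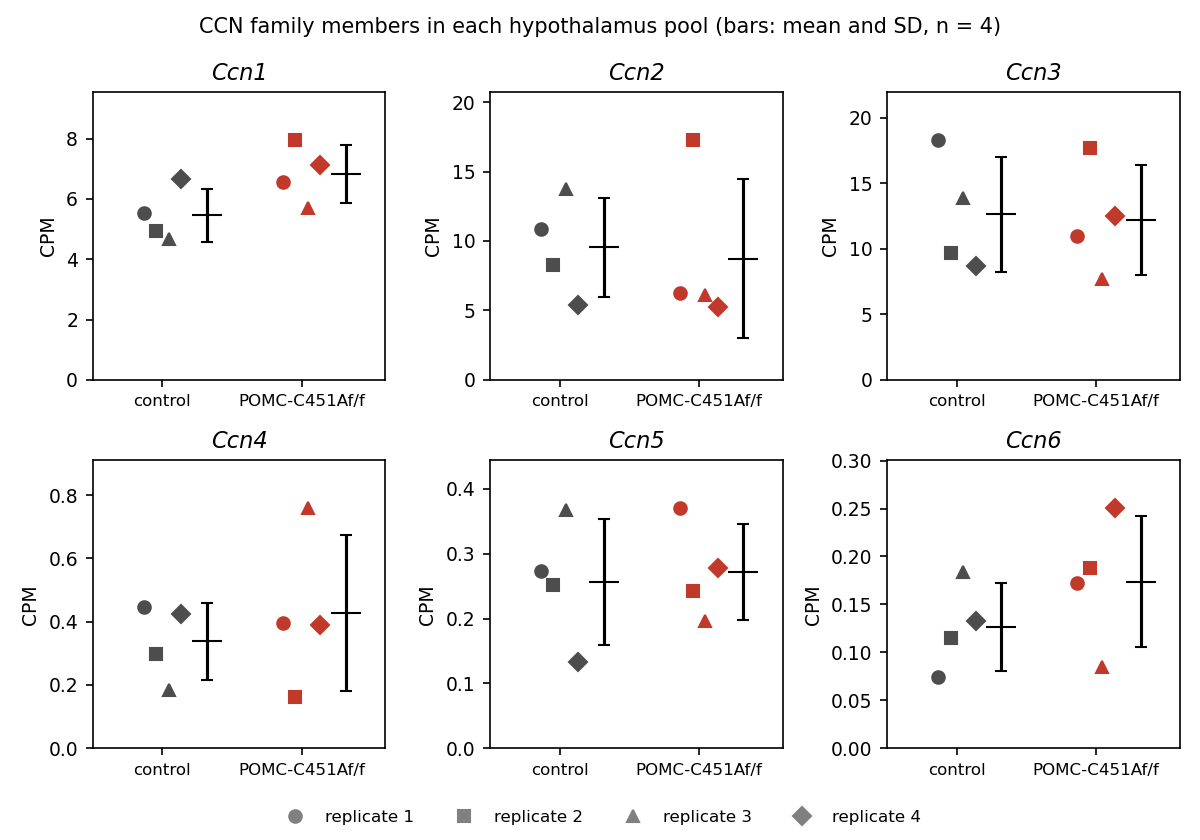
CPM of the 6 members in each pool, with the replicates of control (grey) and POMC-C451Af/f (red) mice as separate symbols, and the mean and SD of 4 pools as black bars. *Ccn2* and *Ccn3* spread widely within both genotypes, *Ccn1* ranges from 4.68 to 7.95 CPM, and the genotypes overlap for every member.

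The 3 low members rested on few counts. *Ccn4* (ENSMUSG00000005124.11, chr15:66891320-66923201, plus strand) had 6 to 27 counts in a pool, and edgeR gave a log2 difference of 0.35 ± 0.434 (SE) at an FDR of 0.920. It was -0.075 without POMC-C451Af/f replicate 3. Its highest value was 0.758 CPM in POMC-C451Af/f replicate 3 and its lowest 0.161 CPM in POMC-C451Af/f replicate 2. *Ccn5* (ENSMUSG00000027656.8, chr2:163820861-163833146, plus strand) had 5 to 18 counts in a pool and a log2 difference of 0.067 ± 0.346 (SE), with an FDR of 0.985 by edgeR, and it was -0.13 without POMC-C451Af/f replicate 1 or control replicate 4. *Ccn6* (ENSMUSG00000062074.8, chr10:39150970-39163794, minus strand) had 3 to 9 counts in a pool and did not pass the filter. POMC-C451Af/f pools averaged 0.174 ± 0.0685 CPM and control pools 0.126 ± 0.0455 CPM of *Ccn6* (SD, n = 4 each, exact permutation p = 0.257). The 95% interval of *Ccn4* reached from 0.654-fold to 2.47-fold.

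**Figure D3:**
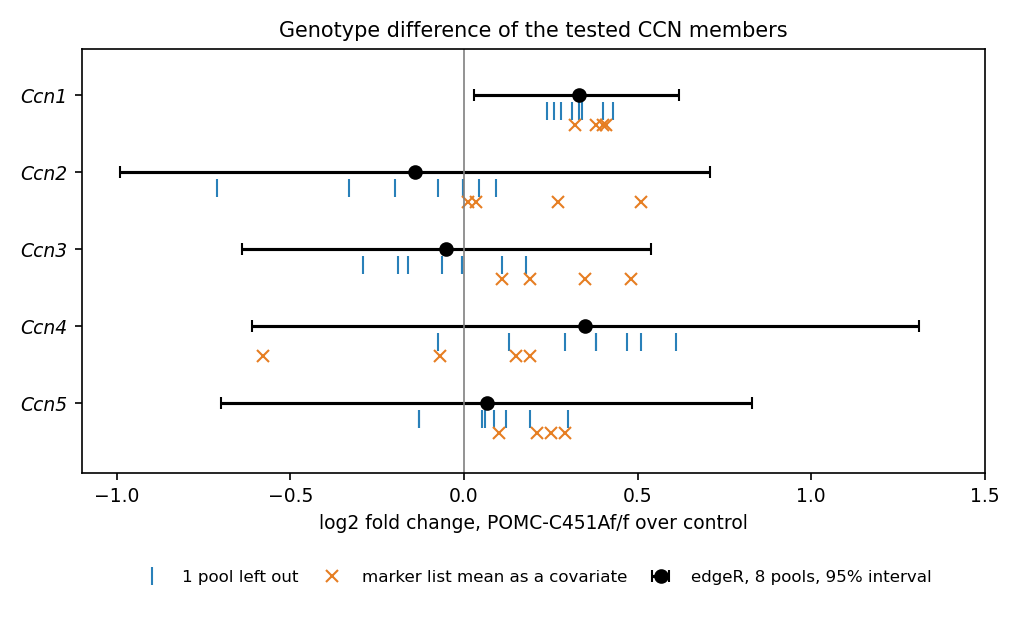
Log2 fold change of POMC-C451Af/f over control for the 5 tested members, with the edgeR estimate and its 95% interval (black), the 8 fits that each left out 1 pool (blue) and the 4 fits with a marker list mean as a covariate (orange). The interval of *Ccn1* lies above 0, from 0.029 to 0.62, and those of the other 4 members span 0.

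The pools of 1 genotype differed more in *Ccn2* and *Ccn3* than in most genes. The within-genotype SD of log2(CPM + 0.5) was 0.655 for *Ccn2*, 0.475 for *Ccn3* and 0.198 for *Ccn1*, against a median of 0.0736 over the 12397 genes with a mean of at least 5 CPM. These values lay above 99.6%, 99.4% and 95.2% of those genes. The genes were not matched for level, and *Ccn1*, at a mean of 6.14 CPM, lay near their floor of 5 CPM. The part of sampling noise in these values was not tested. The highest pool was 3.29 times the lowest for *Ccn2*, 2.39 times for *Ccn3* and 1.70 times for *Ccn1*.

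Among the members, *Ccn2* and *Ccn3* were high in the same pools, POMC-C451Af/f replicate 2 and control replicates 1 and 3. Over the 8 pools Pearson's r was 0.75 (exact permutation p = 0.038, adjusted p = 0.239 over 10 pairs) and Spearman's rho 0.64 (exact permutation p = 0.0962, adjusted p = 0.715). Without the 2 pools farthest from the median of *Ccn2*, r was 0.64, and with genotype means removed it was 0.75. *Ccn2* and *Ccn4* had an r of -0.71 (exact permutation p = 0.0478, adjusted p = 0.239) and a rho of -0.55 (exact permutation p = 0.171, adjusted p = 0.715). That r was -0.17 without the 2 farthest pools, so it rests on them. *Ccn1* and *Ccn2* had an r of -0.11 (exact permutation p = 0.783, adjusted p = 0.870) and a rho of -0.29 (exact permutation p = 0.501, adjusted p = 0.715), and r was -0.76 without the 2 farthest pools. *Ccn1* and *Ccn3* had an r of 0.17 (exact permutation p = 0.676, adjusted p = 0.845) and a rho of 0.024 (exact permutation p = 0.977, adjusted p = 0.977), and r was -0.012 without the 2 farthest pools. None of the 10 pairs passed an adjusted p of 0.05.

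The genes most alike in pattern to each member over the 8 pools, among those with a mean of at least 5 CPM, were named by Pearson's r of log2(CPM + 0.5) as a description. For *Ccn2* they were *Fcgrt* (r = 0.99), *Cp* (0.98), *Coq4* (0.98), *Uaca* (0.98) and *Vtn* (0.97). *Cp* encodes ceruloplasmin and *Vtn* vitronectin, an adhesive glycoprotein that integrins bind, and *Vtn* is also on the mural cell list. For *Ccn3* they were *Abca9* (r = 0.98), *Thbd* (0.96), *Smim1* (0.96), *Stk32a* (0.96) and *Micall2* (0.96). *Thbd* encodes thrombomodulin, the thrombin receptor of the vessel wall, and ranged from 7.76 to 18.5 CPM. For *Ccn1* they were *Nolc1* (r = 0.96), *Rpl7l1* (0.95), *Fbxl14* (0.93), *Tbc1d10a* (0.92) and *Zfp850* (0.91), of which *Nolc1* ranged from 67.6 to 73.1 CPM. For *Ccn4* and *Ccn5*, with their few counts, the first were *Hat1* (r = 0.96), *Dhx35* (0.93), *Kptn* (0.92), *Adamts9* (0.92) and *Cdk8* (0.91), and *Aplp1* (0.96), *Maml2* (0.94), *Nudcd1* (0.93), *D2hgdh* (0.92) and *Nsfl1c* (0.92).

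Markers of neighbouring tissues and of vessel and meningeal cells also varied between the pools. The 8 genes of the leptomeningeal fibroblast list, a cell type of the brain's inner membranes, summed to 111, 213, 88.6 and 89.7 CPM in POMC-C451Af/f replicates 1 to 4. They summed to 205, 111, 231 and 77.4 CPM in control replicates 1 to 4. The 3 pools with the highest sums were therefore POMC-C451Af/f replicate 2 and control replicates 1 and 3, the pools in which *Ccn2* and *Ccn3* were highest. These 3 pools also had the highest sums of the mural cell list, 220 to 238 CPM against at most 213 CPM in the others. The same held for the hypothalamus list, at 1389 to 1664 CPM against at most 1195 CPM. All 8 list genes were counted in every pool, and the most abundant per exon length was *Igf2*, an insulin-like growth factor, at 29.6 to 119 CPM. In mean log2(CPM + 0.5) these 3 pools lay between 4.06 and 4.18 and the other 5 between 2.51 and 3.17. Because the pools form separate sets, no value of a correlation is given for this list, nor within the sets, which hold 3 and 5 pools. Its relations are counted with those of the other lists below, where only the rank of their p is told. In a whole-tissue pool, more cells of a type and more RNA per cell cannot be told apart. Between the genotypes, 0 of its 8 genes were called by edgeR, DESeq2 or limma voom and 0 had an unadjusted p under 0.05, and its median log2 fold change was -0.31.

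**Figure D4:**
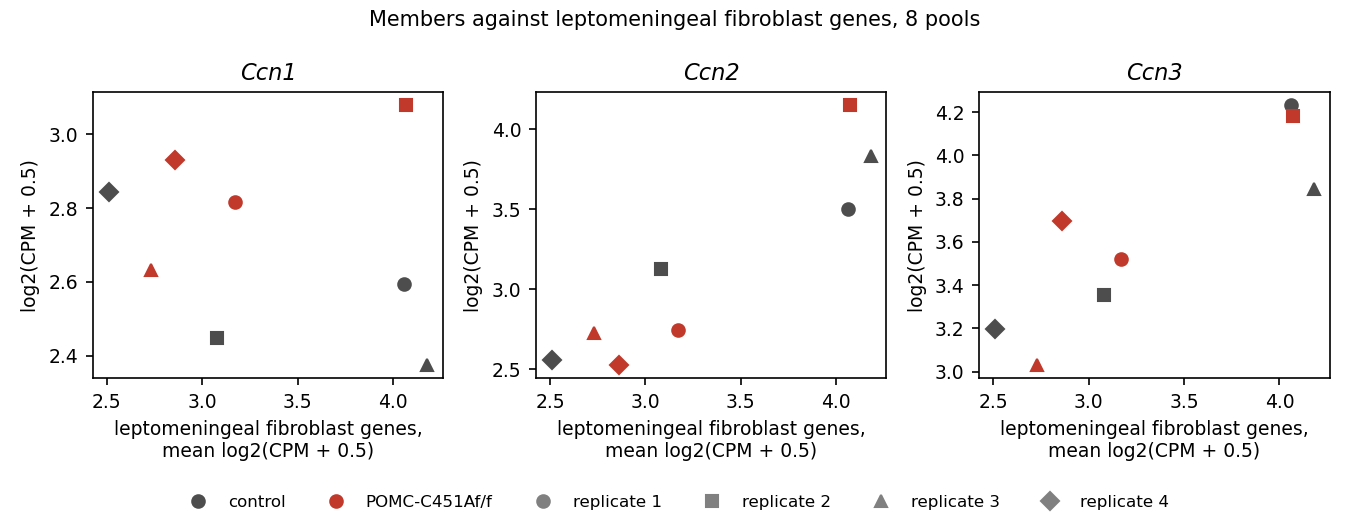
Level of *Ccn1*, *Ccn2* and *Ccn3* as log2(CPM + 0.5) in each of the 8 pools against the mean log2(CPM + 0.5) of 8 leptomeningeal fibroblast genes, with symbols for the replicates of control (grey) and POMC-C451Af/f (red) mice. The 3 pools with list means of 4.06 to 4.18 have the 3 highest values of *Ccn2* and *Ccn3*, and *Ccn1* shows no such order.

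By Pearson's r the mural cell list, for smooth muscle cells and pericytes, had the lowest p with *Ccn2* of the lists compared. That p did not pass the adjustment. By Spearman's rho the leptomeningeal and astrocyte lists had a lower p with *Ccn2* than the mural cell list, also without passing the adjustment. The 7 genes of the mural cell list summed to 181 to 238 CPM, with *Vtn* the most abundant per exon length. Over 8 pools r was 0.92 (exact permutation p = 0.000942, adjusted p = 0.0613 over 65 relations of members and lists) and rho 0.83 (exact permutation p = 0.0154, adjusted p = 0.167), and r was 0.85 without the 2 farthest pools. As a description, the r of its single genes with *Ccn2* was 0.97 for *Vtn*, 0.92 for *Acta2*, 0.91 for *Tagln*, 0.77 for *Pdgfrb*, 0.72 for *Myh11*, 0.20 for *Rgs5* and -0.051 for *Kcnj8*. For *Ccn3* the same list gave an r of 0.77 (exact permutation p = 0.0285, adjusted p = 0.309) and a rho of 0.76 (exact permutation p = 0.0368, adjusted p = 0.299), and 0.60 without the 2 farthest pools. The r of its single genes with *Ccn3* was 0.88 for *Acta2*, 0.78 for *Vtn*, 0.76 for *Pdgfrb* and 0.69 for *Tagln*. It was 0.53 for *Myh11*, 0.15 for *Kcnj8* and -0.12 for *Rgs5*.

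*Ccn3* was also compared with the hypothalamic and the thalamic markers, and neither relation passed the adjustment. By Pearson's r the leptomeningeal list had a lower p with *Ccn3* than either, also without passing the adjustment. By Spearman's rho the hypothalamus list had the lowest p with *Ccn3* of the lists compared. With the hypothalamus list r was 0.82 (exact permutation p = 0.0142, adjusted p = 0.231) and rho 0.86 (exact permutation p = 0.0107, adjusted p = 0.167), and r was 0.54 without the 2 farthest pools. As a description, all 11 genes of that list had a positive r with *Ccn3*, between 0.49 and 0.88, and the relation of the list mean was weaker without control replicate 1 and POMC-C451Af/f replicate 3, the farthest pools. With the thalamus list, whose most abundant gene per exon length, *Prkcd*, ranged from 16.5 to 169 CPM, r was -0.79 (exact permutation p = 0.0206, adjusted p = 0.267) and rho -0.74 (exact permutation p = 0.0458, adjusted p = 0.331). It was -0.51 without the 2 farthest pools, so it partly rests on them. All 8 thalamic genes had a negative r with *Ccn3*, between -0.83 and -0.72. The thalamic sum was 273, 170, 531 and 345 CPM in POMC-C451Af/f replicates 1 to 4, against 115, 507, 213 and 206 CPM for controls 1 to 4, so control replicate 1, highest in *Ccn3*, was lowest in it.

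*Ccn2* and the hypothalamus list had an r of 0.74 (exact permutation p = 0.0386, adjusted p = 0.314) and a rho of 0.83 (exact permutation p = 0.0154, adjusted p = 0.167), and r was 0.88 without the 2 farthest pools. With the astrocyte list, led per exon length by *Slc1a3*, a glutamate transporter gene, r was 0.72 (exact permutation p = 0.0369, adjusted p = 0.314) and rho 0.86 (exact permutation p = 0.0107, adjusted p = 0.167), and r was 0.56 without the 2 farthest pools. The cerebral cortex list had an r of -0.66 with *Ccn3* (exact permutation p = 0.0843, adjusted p = 0.419) and a rho of -0.83 (exact permutation p = 0.0154, adjusted p = 0.167), and r was -0.46 without the 2 farthest pools. *Ccn1*, *Ccn4* and *Ccn5* had no relation with an exact permutation p under 0.05 for Pearson's r. None of the 65 relations passed an adjusted p of 0.05, among them 5 with the leptomeningeal list, and the smallest was 0.0613.

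**Figure D5:**
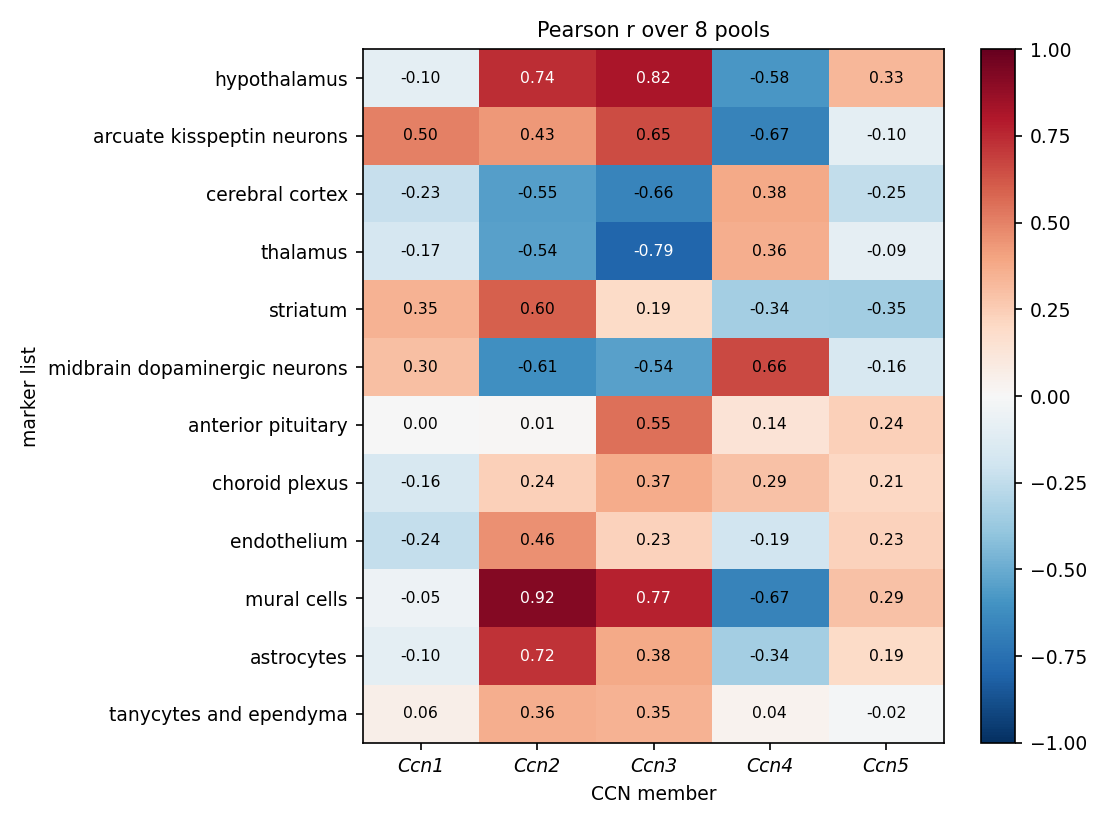
Pearson's r over 8 pools between log2(CPM + 0.5) of the 5 tested members and the mean log2(CPM + 0.5) of 12 marker lists, with positive values in red and negative values in blue. *Ccn2* and *Ccn3* share positive values with the mural cell and hypothalamus lists, and *Ccn3* has a negative value of -0.79 with the thalamus list.

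Other lists were compared between the genotypes and between pools. The midbrain dopaminergic list, led per exon length by *Th*, the tyrosine hydroxylase gene, summed to 313, 251, 484 and 354 CPM in POMC-C451Af/f replicates 1 to 4, against 220, 209, 253 and 270 CPM for controls 1 to 4. These sums overlapped, and the list mean did not pass the test between genotypes (exact permutation p = 0.0857). Of its 8 genes, 7 had an unadjusted p under 0.05 in the higher direction by edgeR, against 2.7% of all tested genes, and edgeR, DESeq2 and limma voom each called 0 of them. *Th* was at 69.9 ± 15.8 CPM in POMC-C451Af/f pools and 47.8 ± 4.28 CPM in control pools (SD, n = 4 each), with no overlap and an FDR of 0.878 by edgeR, 0.501 by DESeq2 and 0.875 by limma voom. The genotypes also did not overlap for the neuropeptide genes *Trh* (log2 difference -0.23) and *Tac2* (-0.20) and the astrocyte genes *Aqp4*, a water channel (0.29), and *Aldh1l1* (-0.086), a state found for 2.78% of all tested genes. *Aqp4* had an FDR of 0.198 by edgeR, 0.191 by limma voom and 0.000191 by DESeq2, and its log2 fold change was under 0.5 in each. In the hypothalamus list, 10 of 11 genes had a log2 fold change below 0, with a median of -0.23, and 2 were lower at an unadjusted p under 0.05 by edgeR, against 2.39% of all tested genes, while the list mean gave an exact permutation p of 0.286. The 2 genes were *Trh* and *Pomc*, the gene of the neurons in which the Cre acts. *Pomc* was at 49.5, 50.2, 35.8 and 30.6 CPM in the POMC-C451Af/f pools and at 98.9, 49.7, 50.5 and 50.8 CPM in the control pools, each in the order of replicates. The genotypes overlapped, and control replicate 1, which also had the highest sum of pituitary markers, stood far above all other pools. The log2 difference of *Pomc* was -0.59 ± 0.237 (SE) at an FDR of 0.878 by edgeR, with an unadjusted p of 0.0319 by edgeR and 0.055 by DESeq2. Without control replicate 1 it was -0.28, with an unadjusted p of 0.0971 by edgeR. Of the 5 tested genes of the arcuate kisspeptin list, 0 were called by edgeR, DESeq2 or limma voom. In that list 2 genes, *Tac2* and *Esr1*, were lower at an unadjusted p under 0.05 by edgeR, against 2.39% of all tested genes. All 6 genes of the list, with the untested *Kiss1*, summed to 115 to 149 CPM, and their mean gave an exact permutation p of 0.6. The cerebral cortex list summed to 57.4 to 96.0 CPM, striatum to 106 to 135, choroid plexus to 33.1 to 42.1, endothelium to 173 to 195, astrocytes to 1084 to 1156, and tanycytes and ependyma to 56.9 to 90.0 CPM. The anterior pituitary list, led by *Prl*, the prolactin gene, summed to 1451 CPM in control replicate 1, the pool with the highest *Ccn3*, and to 17.0 to 223 CPM in the other 7 pools. With a list mean as a covariate, chosen after the data were seen, the log2 fold change of *Ccn3* was 0.11 for the leptomeningeal list, 0.19 for the thalamus list, 0.35 for the hypothalamus list and 0.48 for the midbrain list. That of *Ccn2* was 0.034, 0.013, 0.27 and 0.51 in the same order, and that of *Ccn1* 0.32, 0.40, 0.38 and 0.41. With the leptomeningeal list the standard error was 0.159 for *Ccn2* and 0.137 for *Ccn3*, against 0.385 and 0.267 with no covariate. It was 0.329 and 0.16 with the thalamus list and 0.274 and 0.144 with the hypothalamus list. With the midbrain list it was 0.379 and 0.272. The leptomeningeal list mean splits the pools into the separate sets given above, so it acts in the fit much as a split of the pools. EdgeR called 0 members in these 4 fits. *Ccn3* had an unadjusted p of 0.0318 by edgeR with the hypothalamus list and *Ccn1* one under 0.05 in each, and none passed the adjustment. In each of these 4 lists most genes had log2 fold changes on the same side of 0. The fits therefore cannot fully tell genotype and list apart. The part of these tissues and cells in the members' levels was not tested.

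The genes around the family were examined in 7 lists of 90 genes, of which 89 passed the filter. EdgeR, DESeq2 and limma voom each called 0 of them. Without adjustment 7 genes (7.87%) had a p under 0.05, 4 higher and 3 lower in POMC-C451Af/f pools, against 5.1% of all tested genes. The median log2 fold change was 0.033 over the 89 genes and 0.00085 over all tested genes.

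Of the 13 receptors and partners of CCN proteins, 0 were higher and 1 was lower at an unadjusted p under 0.05 by edgeR. These counts compare with 2.7% and 2.39% of all tested genes. The log2 fold change was above 0 for 11 genes and below 0 for 2, with a median of 0.052. The list mean did not pass the test between genotypes (exact permutation p = 0.0571). *Sdc4*, a syndecan that carries heparan sulfate, averaged 91.6 ± 9.19 CPM in POMC-C451Af/f pools and 103 ± 4.38 CPM in control pools (SD, n = 4 each), at an FDR of 0.878 by edgeR. *Lrp1*, an endocytic receptor, was the most abundant of them per exon length at 876 to 972 CPM, and *Gja1*, the gap junction gene connexin 43, was at 233 to 273 CPM.

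The YAP and TAZ target list had 20 genes, of which 19 were tested, 4 higher and 1 lower at an unadjusted p under 0.05, against 2.7% and 2.39% of all tested genes, and the median log2 fold change was 0.025. The genotypes did not overlap for 2 of them, against 2.78% of all tested genes. *Dock5*, a guanine nucleotide exchange factor, averaged 20.1 ± 1.18 CPM in POMC-C451Af/f pools and 17.9 ± 0.274 CPM in control pools (SD, n = 4 each). *Arhgef17*, of the same class, averaged 271 ± 8.85 CPM in POMC-C451Af/f pools and 286 ± 3.97 CPM in control pools (SD, n = 4 each). The FDR of both was 0.878 by edgeR. *Crim1*, a transmembrane protein with an IGFBP-like domain, and *F3*, tissue factor, had log2 fold changes of 0.10 and -0.13. *Ankrd1* had at most 3 counts in any pool. Of the 15 components of the Hippo pathway, 1 was lower and 0 were higher at an unadjusted p under 0.05. These counts compare with 2.39% and 2.7% of all tested genes. The median log2 fold change of the list was 0.021. *Nf2*, *Stk4* and *Mob1a*, its most abundant genes per exon length, had log2 fold changes of 0.0069, 0.054 and 0.061.

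The Wnt target, TGF-beta and immediate early lists, with 9, 10 and 11 tested genes, had no gene with an unadjusted p under 0.05, and their median log2 fold changes were 0.12, 0.054 and 0.090. Among Wnt targets, *Axin2*, *Nkd1* and *Znrf3* had log2 fold changes of -0.0077, 0.22 and 0.035. Among TGF-beta genes, *Smad4*, *Smad7* and *Smad2* had 0.068, 0.081 and 0.0042. Among immediate early genes, *Egr1*, *Fos* and *Junb* had 0.075, 0.28 and -0.058, and *Fos* averaged 26.8 ± 3.12 CPM in POMC-C451Af/f pools and 22.1 ± 4.92 CPM in control pools (SD, n = 4 each). The list of hypothalamic genes with known skeletal effects had 12 tested genes and 0 with an unadjusted p under 0.05, with a median log2 fold change of -0.11. *Cartpt*, *Npy* and *Cnr1* in that list had log2 fold changes of 0.14, 0.035 and -0.024.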

How the data were processed

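RNA of 8 animals of each genotype was sequenced in 4 pools of 2 animals. According to the study's methods and the submitters' processing notes, transcripts of GENCODE M32 (GRCm39) were quantified by the authors with Salmon (v1.10), and tximport (v1.28) gave the deposited table of estimated counts per gene. The other deposited table holds the authors' own DESeq2 v1.40 comparison (mean counts, fold changes and p-values) and was not used. Identifiers were matched without version to GENCODE M21 (51424 of 55890), so positions, lengths and transcript sequences are on GRCm38 and were not converted.

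Estimated counts were rounded to whole numbers, filtered with filterByExpr (minimum count 10, minimum total count 15), scaled with TMM and tested over 18637 genes in a quasi-likelihood model of genotype (edgeR 4.0.16, R 4.3.3). CPM are on TMM-scaled library sizes. Exact permutation tests used log2(CPM + 0.5), and the sign-flip test used CPM per kb + 0.05. Tests were two-sided. Alternatives were DESeq2 1.42.0, limma 3.58.1 voom, other scalings, filters and thresholds, the replicate number as a block, each pool left out, and 4 list means as covariates chosen after the data were seen. The fits were tested on simulated data. The simulation gave every gene the same low dispersion and changed only genes of higher counts. It therefore does not cover genes as variable as *Ccn2* and *Ccn3* or as low as *Ccn4* and *Ccn5*. Pools of a genotype differed beyond sampling noise (lowest chi-square per degree of freedom 6.5).

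The members and lists were chosen with earlier results of these data known. Beside the 6 members and *Esr1*, the text names each pathway list's 3 most abundant genes per kb and those called or not overlapping. It also names the most abundant gene of some marker lists, the marker genes without overlap, and the 5 genes most alike to each member. *Kiss1*, *Pdyn*, *Pomc*, *Ankrd1* and the other 6 mural genes were named after their values were seen.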

Additional observations from a re-analysis of the deposited data

Results flagged for a closer look

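In 52 groups of 4 pools, made of the 6 members and the 20 lists in each genotype, a pool far from the other 3 was looked for by the gap to its neighbour as a share of the group's range. It was found in 4 groups, and chance gives about 1 in 20, or 2.6.

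*Ccn2* was at 17.3 CPM in POMC-C451Af/f replicate 2 against 5.26 to 6.22 CPM in the other 3 pools of the genotype (gap 0.920 of the range). The Wnt target list mean was 3.02 in control replicate 2 against 2.71 to 2.75 in log2(CPM + 0.5) (gap 0.869). The anterior pituitary list mean was 3.95 in control replicate 1 against 0.936 to 1.41 (gap 0.843), the pool with the highest *Ccn3*. The endothelium list mean was 4.89 in POMC-C451Af/f replicate 1 against 5 to 5.02 (gap 0.861).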

How the results depend on the processing

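With the other tools, scalings, filters and pools left out, 0 members and 0 genes of the pathway lists were called. Of all tested genes 4 were called, against 13 with DESeq2 and 2 with at least 10 counts required per pool. With the replicate block 2 were called, and the numbers did not pair the pools: same-numbered pools had correlations of their deviations from the group means of 0.14, -0.18, -0.11 and 0.24. The block changed no call of a member. Under the other tools, scalings and filters and the block, with no covariate and no pool left out, the log2 fold change was 0.32 to 0.34 for *Ccn1*, -0.27 (limma voom) to -0.13 for *Ccn2*, which was -0.23 with the block, -0.059 to -0.036 for *Ccn3*, 0.23 to 0.35 for *Ccn4* and 0.059 to 0.15 (relative to *Actb*) for *Ccn5*. *Ccn4* and *Ccn5* had no value with at least 10 counts in every pool, and *Ccn6* was fitted only without the filter, with DESeq2 and relative to *Actb*, with log2 fold changes of 0.43 to 0.45.

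With 1 pool left out, the log2 fold change ranged from -0.71 to 0.093 for *Ccn2*, -0.29 to 0.18 for *Ccn3*, -0.075 to 0.61 for *Ccn4* and -0.13 to 0.30 for *Ccn5*. The difference of group means in log2(CPM + 0.5) ranged from -0.24 to 0.14 for *Ccn3*, -0.042 to 0.27 for *Ccn4* and -0.05 to 0.10 for *Ccn5*. For *Ccn2* that difference ranged from -0.59 to -0.027, against -0.22 with all pools. For *Ccn6* it ranged from 0.049 to 0.17, against 0.10 with all pools. The mean log2 ratio of *Ccn2* to *Ccn1* ranged from -0.20 to 0.083, and with the longest transcript as length it was 0.15, and that of *Ccn3* to *Ccn2* 0.31.

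With a list mean as covariate, added after the data were seen, the log2 fold change was 0.034 for *Ccn2* and 0.11 for *Ccn3* with leptomeningeal fibroblasts, 0.013 and 0.19 with thalamus, 0.27 and 0.35 with hypothalamus, and 0.51 and 0.48 with midbrain dopaminergic neurons. In the same order it was 0.15, 0.19, -0.068 and -0.58 for *Ccn4*, and 0.21, 0.10, 0.25 and 0.29 for *Ccn5*. The genes of these lists leaned with genotype, so the fits cannot fully tell genotype and list apart, and the cause was not tested.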
